A study of Homo sapiens with 9 samples.

Results

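The 8 genes described here encode amino acid transporters of the plasma membrane, or the partner subunit of such a transporter, and were chosen by name: SLC7A5 (ENSG00000103257), SLC3A2 (ENSG00000168003), SLC7A11 (ENSG00000151012), SLC1A5 (ENSG00000105281), SLC1A4 (ENSG00000115902), SLC38A1 (ENSG00000111371), SLC38A2 (ENSG00000134294) and SLC7A1 (ENSG00000139514). They are 8 of the 19569 gene IDs in a table of ribosome footprint counts, and each matched 1 ID. RefSeq places them on chromosomes 16, 11, 4, 19, 2, 12, 12 and 13, in that order. Ribosome profiling reads the pieces of mRNA that sit inside ribosomes and so escape digestion. The footprint level of a gene therefore holds both the amount of its mRNA and how heavily that mRNA is translated, which cannot be told apart in these libraries. The cells were of the human T leukaemia line Jurkat, clone E6-1, labelled as T lymphoblasts, in 3 groups of 3 biological replicates: resting, activated for 5 h, or activated for 12 h. The activating antibodies were anti-CD3, coated on the plate at 10 µg/mL, and anti-CD28, added to the medium at 5 µg/mL. The resting libraries are titled 0 h, and no library is of unstimulated cells kept for 5 h or 12 h. Activation and time in culture therefore cannot be told apart. The groups share 1 clonal leukaemic line, so the replicates carry no variation between donors. In such bulk libraries, a change in every cell and a larger change in some of the cells cannot be told apart.

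Activated T cells build protein and nucleotides quickly and take up more amino acids than resting T cells. SLC7A5 (LAT1) is a light chain that exchanges large neutral amino acids such as leucine, and it reaches the cell surface bound to the heavy chain SLC3A2 (CD98hc). SLC7A11 (xCT) is another light chain of the same heavy chain and exchanges cystine for glutamate, which feeds glutathione synthesis. SLC1A5 (ASCT2) and its paralogue SLC1A4 (ASCT1) exchange small neutral amino acids, SLC1A5 with glutamine among them. SLC38A1 and SLC38A2 (SNAT1 and SNAT2) carry glutamine, alanine and other small neutral amino acids inward with sodium, and SLC7A1 carries arginine and lysine.

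The libraries held 4343515 to 18506509 counts each. Correlations of log2 CPM across genes were 0.955 or higher for every pair of libraries from 1 group and 0.928 or higher for every other pair. CPM here means counts per unit of TMM-scaled library size, in parts per 1e6, so each value is relative to its scaled library, and more or fewer footprints in every gene alike would go unseen. Differences were tested over 13920 IDs with edgeR, and a gene was called changed at a Benjamini-Hochberg adjusted p under 0.05. All 8 transporter genes passed the low-count filter. Apart from these 8 genes, no table used here pairs the Ensembl IDs with symbols, so T cell markers, markers of other cells and other genes of the pathway were not analysed here. Coding lengths were not used here either, so levels are compared between groups for a gene and not between genes.

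At 5 h versus resting, SLC7A5 rose and SLC1A4, SLC1A5, SLC7A11 and SLC38A2 fell, while SLC3A2, SLC38A1 and SLC7A1 did not pass the test. Of the 8 genes, 1 was called higher, against 16% of all IDs tested, and 4 were called lower, against 18.4%. In either direction that makes 5 of 8, against 34.5% of all IDs, and the libraries of the groups did not overlap for 6 of 8, against 45.7%. At 12 h versus resting, SLC7A5 and SLC3A2 were called higher, 2 of 8 against 15.8% of all IDs, and the 4 genes that fell at 5 h were called lower, against 19.3%. Together 6 of 8 were called, against 35.1% of all IDs, and the groups did not overlap for 6 of 8, against 45.8%. At 12 h versus 5 h, SLC3A2 rose and SLC7A5, SLC7A11, SLC1A4, SLC38A1 and SLC7A1 fell: 1 of 8 higher against 11.6% of all IDs and 5 of 8 lower against 13.5%. The 6 of 8 called either way stand against 25.1%, and the 7 of 8 without overlap against 39.1%. The 5 called lower at 12 h versus 5 h became 2 without 5 h replicate 3 or 12 h replicate 3, and 3 without 5 h replicate 2 or 12 h replicate 1. With all 9 libraries the share of the 8 genes called lower was above the background in each comparison. No test of that was made, because the genes were chosen with results of these data known. Their median log2 fold change was -0.25 at 5 h versus resting, against 0.07 over all IDs, -0.37 at 12 h versus resting, against 0.05, and -0.30 at 12 h versus 5 h, against -0.05. The comparisons at 5 h and at 12 h share the resting libraries.

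**Figure D1:**
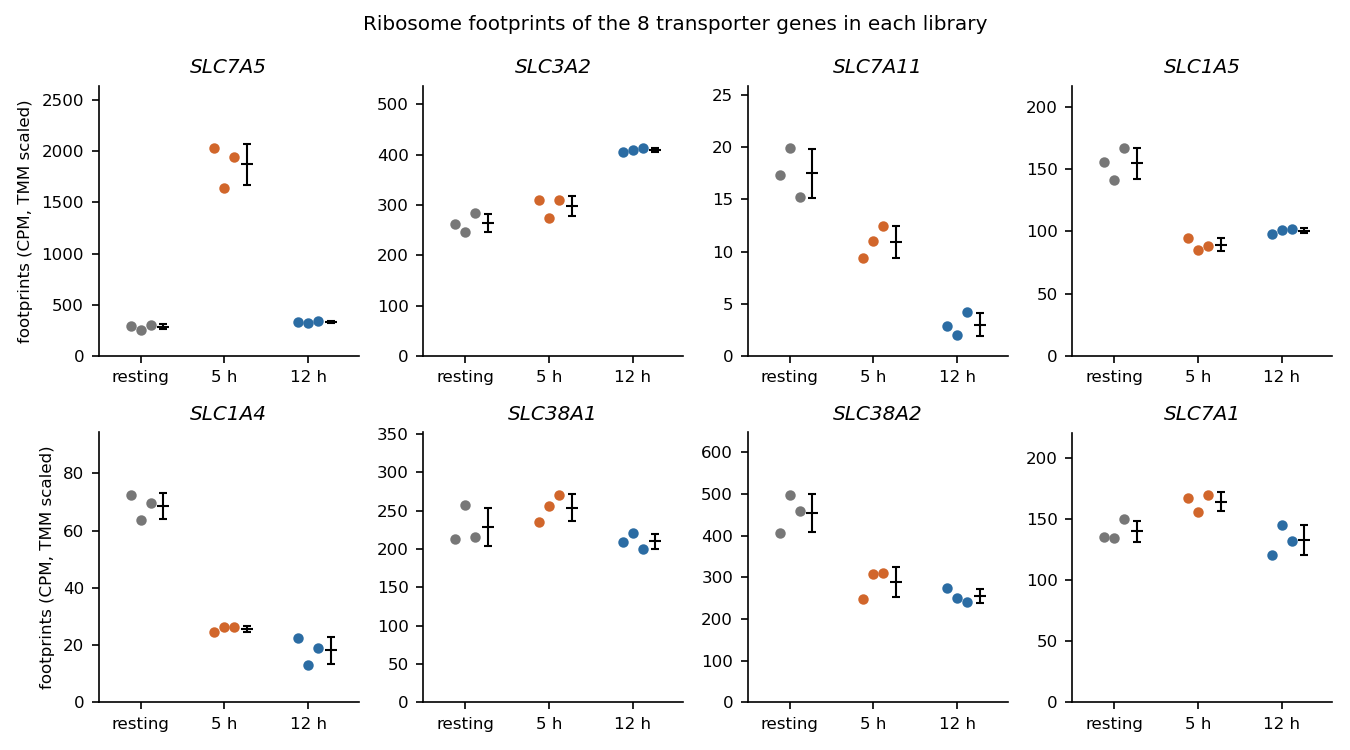
Footprint level (CPM, vertical axis, starting at 0 with a scale of its own in each panel) of each of the 8 genes in the 3 resting, 3 5 h and 3 12 h libraries. Points are libraries and bars the mean ± SD; SLC7A5 stands at 1641 to 2029 CPM at 5 h and at 341.6 CPM or less in every other library.

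The start sites of 3 of these genes are shown because they stand for the courses described below: SLC7A5 for the transient rise, and SLC1A4 and SLC38A2 for the lasting fall. Each window is RefSeq sequence of build GRCh38.p14, from 250 bases before an annotated start to 50 after it, read 5′ to 3′ along the gene. Capitals mark, on either strand, the E-box CACGTG bound by MYC and MAX among others, the core TGATGNAA of the element bound by ATF4 with CEBP proteins, the AP-1 motif TGANTCA, the GC box GGGCGG and the CCAAT box CCAAT. The SLC7A5 window lies at chr16:87869458-87869757 on the minus strand, the SLC1A4 window, the second of its 2 annotated starts, at chr2:64989149-64989448 on the plus strand, and the SLC38A2 window at chr12:46372724-46373023 on the minus strand.
SLC7A5: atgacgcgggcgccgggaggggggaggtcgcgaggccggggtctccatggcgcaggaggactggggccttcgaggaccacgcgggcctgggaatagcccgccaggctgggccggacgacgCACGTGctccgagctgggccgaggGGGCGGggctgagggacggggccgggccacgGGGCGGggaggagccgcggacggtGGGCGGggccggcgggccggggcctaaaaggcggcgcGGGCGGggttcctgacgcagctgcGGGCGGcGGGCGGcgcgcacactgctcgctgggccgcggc
SLC1A4: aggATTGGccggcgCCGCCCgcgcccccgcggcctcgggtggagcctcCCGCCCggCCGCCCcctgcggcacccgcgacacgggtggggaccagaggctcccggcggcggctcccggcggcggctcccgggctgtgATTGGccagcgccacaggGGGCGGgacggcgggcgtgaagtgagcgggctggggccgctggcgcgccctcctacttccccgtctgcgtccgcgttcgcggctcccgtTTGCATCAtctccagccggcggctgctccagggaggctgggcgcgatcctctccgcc
SLC38A2: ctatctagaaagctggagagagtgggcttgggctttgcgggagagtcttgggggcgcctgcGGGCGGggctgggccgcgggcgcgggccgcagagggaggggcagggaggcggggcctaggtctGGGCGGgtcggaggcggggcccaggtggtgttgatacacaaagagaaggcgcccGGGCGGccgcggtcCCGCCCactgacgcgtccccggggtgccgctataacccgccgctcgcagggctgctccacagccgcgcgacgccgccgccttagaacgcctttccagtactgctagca
The SLC7A5 window holds 1 E-box, with its first base at position -130 from the start, and 6 GC boxes. The SLC1A4 window shown holds the ATF4 core on the reverse strand at position -7, 2 CCAAT boxes and 4 GC boxes, and the SLC38A2 window holds 4 GC boxes and none of the other motifs searched. The window at the other, outermost annotated start of SLC1A4 holds none of the motifs searched, and the window shown was chosen because it holds matches. The promoter table has 13 windows for 7 of the 8 genes, SLC7A11 aside. The ATF4 core occurred in 5 of the 13 windows, 1 each for SLC3A2, SLC1A5, SLC1A4, SLC38A1 and SLC7A1, against 3.62% of all 35116 windows. Of these matches only that of SLC7A1 lay in the window of an outermost annotated start. The matches of SLC7A1 and SLC3A2 lay after the start, at positions 7 and 37. The E-box occurred in 2 of the 13 windows, of SLC7A5 and SLC1A5, against 7.26% of all windows, and the AP-1 motif in 2, of SLC3A2 and SLC38A1, against 7.71%. GC boxes occurred in 9 of the 13 windows, against 45% of all, and CCAAT boxes in 4, against 34.6%. The motifs were picked with the results known, and a match is a match of letters, not evidence of binding.

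SLC7A5 footprints rose at 5 h and at 12 h stood close above the resting level. The resting libraries had 295, 256 and 299 CPM, the 5 h libraries 2029, 1641 and 1942 CPM, and the 12 h libraries 327, 323 and 342 CPM. The lowest 5 h library lay 5.49-fold above the highest resting library and 4.80-fold above the highest 12 h library. The mean was 1871 ± 204 CPM at 5 h against 283 ± 23.8 CPM at rest (SD, n = 3 each), and the log2 fold change was 2.72 ± 0.09 (SE), a 6.60-fold rise with a 95% interval from 5.83 to 7.48 and an adjusted p of 3.6e-17 in the edgeR test. Only 259 of the 13920 IDs tested had a larger log2 fold change at 5 h, and 66 did among the 8828 IDs that averaged at least 10 CPM.

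By 12 h SLC7A5 had fallen by 2.50 ± 0.09 on the log2 scale (SE) relative to 5 h, to 330 ± 9.95 CPM at 12 h against 1871 CPM at 5 h, with an adjusted p of 6.62e-16 by edgeR. Among the 13920 IDs, 75 had a lower log2 fold change in this comparison. Against resting cells the 12 h level was 1.17-fold higher, with a 95% interval from 1.04 to 1.31, and the 3 12 h libraries lay above the 3 resting libraries, the gap being 1.08-fold. This difference passed the edgeR test at an adjusted p of 0.0396, and still passed without resting replicate 3 (0.0454). It was lost with each of the other libraries compared left out: by edgeR the adjusted p was 0.0555 without resting replicate 1, 0.194 without resting replicate 2, and 0.0912, 0.0879 and 0.166 without 12 h replicate 1, 2 and 3. The call was also lost without a low-count filter (adjusted p of 0.0874 by edgeR) and by limma on the authors' log2 values (0.125). Over all 15 alternatives the adjusted p ran from 0.00539 to 1. That upper end, and those of the ranges given below, came from an edgeR test against a 1.5-fold change. Such a test asks for more than any change. Among the other alternatives the highest adjusted p was 0.194, by edgeR without resting replicate 2. RefSeq lists 2 pseudogenes of SLC7A5, SLC7A5P1 and SLC7A5P2, and an antisense gene, SLC7A5-AS1, all on chromosome 16 as SLC7A5 is. No source used here says how footprints matching several genes were counted, so part of the SLC7A5 count may belong with the 2 pseudogenes. Footprints of SLC7A5-AS1 could have been counted with SLC7A5 if strand was not used.

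SLC3A2, the heavy chain that carries SLC7A5, took a different course, with its high point at 12 h. The resting libraries had 263, 247 and 283 CPM, the 5 h libraries 309, 274 and 311 CPM, and the 12 h libraries 406, 410 and 413 CPM. The 12 h libraries lay within 405.7 to 412.6 CPM, above every 5 h and every resting library, while 5 h replicate 2 lay within the resting range. At 12 h SLC3A2 was at 409 ± 3.47 CPM against 264 ± 18.2 CPM at rest (SD, n = 3 each), 1.55-fold higher with a 95% interval from 1.37 to 1.75 and an adjusted p of 2.26e-06 by edgeR. It also rose between the time points, to 409 CPM at 12 h against 298 ± 20.6 CPM at 5 h, a log2 difference of 0.46 ± 0.08 (SE) with an adjusted p of 0.000182 by edgeR. At 5 h versus resting the log2 difference was 0.17, with a 95% interval from 0.0019 to 0.34, and its adjusted p of 0.111 by edgeR missed the threshold. With IDs limited to those with at least 50 counts in 3 libraries, that adjusted p was 0.0307 by edgeR, and over all alternatives it ran from 0.0307 to 1.

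Counts of the light chain relative to its heavy chain, taken within each library, need no scaling between libraries. The SLC7A5 to SLC3A2 count ratio was 1.12, 1.04 and 1.06 in the resting libraries, 6.57, 5.98 and 6.25 in the 5 h libraries and 0.807, 0.787 and 0.828 in the 12 h libraries. All 3 groups were separate. The mean log2 ratio was 2.65 ± 0.07 at 5 h against 0.10 ± 0.06 at rest (SD, n = 3 each), and -0.31 ± 0.04 at 12 h against the same resting value. The ratio was thus 5.85 times the resting ratio at 5 h and 0.754 times the resting ratio at 12 h. Each difference had a p of 0.1 by a two-sided exact permutation test, the smallest that 3 against 3 allows, and 0.112 after adjustment over the 9 ratio tests made. The ratio compares counts and not subunits, because coding lengths were not used.

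SLC7A11, the cystine-glutamate exchanger, fell at both times, to few counts at 12 h. The resting libraries had 17.4, 19.9 and 15.2 CPM, the 5 h libraries 9.38, 11.0 and 12.4 CPM, and the 12 h libraries 2.82, 1.97 and 4.17 CPM. The groups were separate at each step. At 12 h SLC7A11 was at 2.99 ± 1.11 CPM against 17.5 ± 2.33 CPM at rest (SD, n = 3 each), a log2 fold change of -2.51 ± 0.27 (SE) with an adjusted p of 1.05e-07 by edgeR. Only 21 of the 13920 IDs had a lower log2 fold change at 12 h versus resting. Between the time points the level fell to 2.99 CPM at 12 h against 10.9 ± 1.53 CPM at 5 h, a log2 difference of -1.84 ± 0.27 (SE) with an adjusted p of 1.41e-05 by edgeR.

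The early fall of SLC7A11 was smaller, to 10.9 CPM at 5 h against 17.5 CPM at rest, a log2 fold change of -0.67 ± 0.23 (SE) with an adjusted p of 0.0269 by edgeR. That call was lost, by edgeR, without resting replicate 1 or 2 (adjusted p of 0.0603 and 0.109) and without 5 h replicate 1 or 2 (0.093 and 0.0666). It was also lost by limma on the authors' log2 values (0.0649), and over all alternatives the adjusted p ran from 0.0118 to 0.634. The 12 h values rest on 33, 9 and 31 counts. The exact Poisson 95% interval of the 9 counts in 12 h replicate 2 runs from 4.12 to 17.1, and it covers counting error only. RefSeq lists an antisense gene, SLC7A11-AS1, whose footprints cannot be told apart from those of SLC7A11 unless strand was used in counting.

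**Figure D2:**
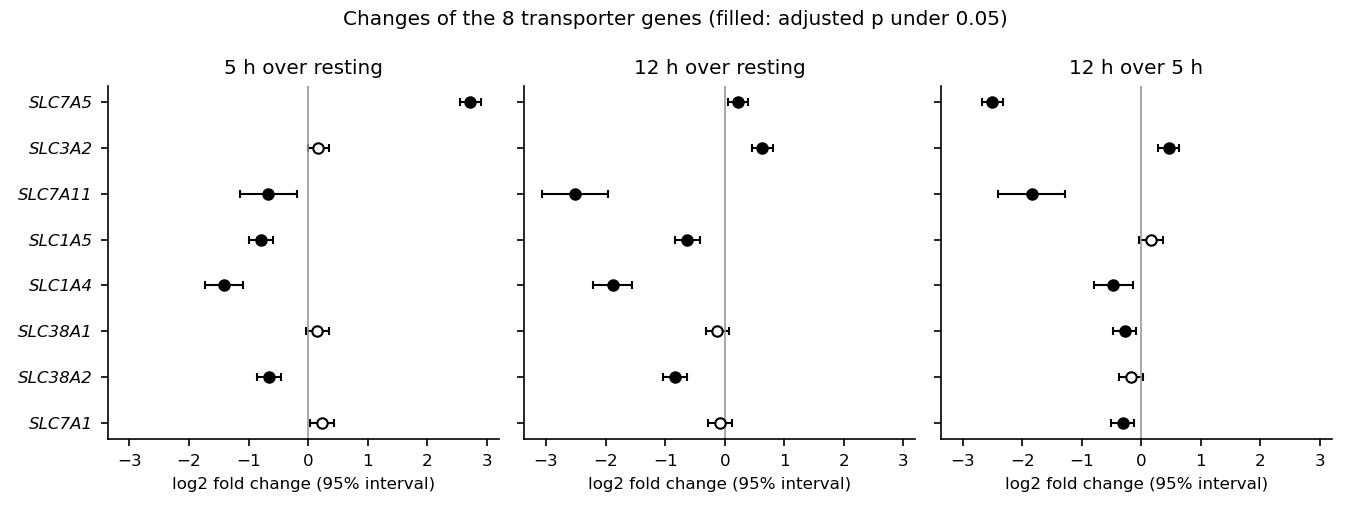
Log2 fold change (horizontal axis) of each gene in the comparisons of 5 h over resting, 12 h over resting and 12 h over 5 h, with 95% intervals of the edgeR fit; filled points passed an adjusted p of 0.05. SLC7A5 lies at 2.72 in the left panel and at 0.22 in the middle panel, while SLC7A11 and SLC1A4 lie furthest to the left in the middle panel, at -2.51 and -1.88.

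The neutral amino acid exchangers SLC1A5 and SLC1A4 both fell, SLC1A4 by more. SLC1A4 had 72.6, 63.7 and 69.7 CPM in the resting libraries, 24.6, 26.5 and 26.2 CPM in the 5 h libraries and 22.4, 12.9 and 19.1 CPM in the 12 h libraries. Every activated library lay well under every resting library, with a gap of 2.41-fold at 5 h and 2.84-fold at 12 h. The log2 fold change was -1.41 ± 0.15 (SE) at 5 h versus resting and -1.88 ± 0.16 at 12 h versus resting, with adjusted p of 9.73e-08 and 2.64e-09 by edgeR. Only 141 IDs at 5 h and 99 IDs at 12 h had a lower log2 fold change among the 13920 tested.

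Between the time points SLC1A4 was called lower again, at 18.1 ± 4.82 CPM at 12 h against 25.8 ± 1.02 CPM at 5 h (SD, n = 3 each), with a log2 difference of -0.47 ± 0.16 (SE) and an adjusted p of 0.0352 by edgeR. That call was lost, by edgeR, without 5 h replicate 2 or 3 (adjusted p of 0.0897 and 0.115) and without 12 h replicate 2 or 3 (0.181 and 0.074). It was also lost by edgeR when only the 6 libraries compared were fitted (0.0728), and over all alternatives the adjusted p ran from 0.0101 to 1. The 12 h replicate 2 library, which was the shallowest with 4343515 counts, had the lowest SLC1A4 value, from 59 counts.

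SLC1A5, the glutamine exchanger, had 156, 141 and 166 CPM in the resting libraries, 94.9, 84.6 and 88.5 CPM in the 5 h libraries and 97.9, 101 and 102 CPM in the 12 h libraries. All activated libraries lay under the resting ones, and the 12 h libraries lay above the 5 h libraries by a gap of 1.03-fold. At 5 h the mean was 89.3 ± 5.16 CPM against 155 ± 12.6 CPM at rest (SD, n = 3 each), a log2 fold change of -0.79 ± 0.10 (SE) with an adjusted p of 8.46e-07 by edgeR. At 12 h it was 100.2 ± 2.02 CPM against the same resting level, a log2 fold change of -0.63 ± 0.10 and its adjusted p was 2.4e-05 by edgeR. The step between the times, 0.17 on the log2 scale with a 95% interval from -0.04 to 0.37, did not pass (adjusted p of 0.251 by edgeR).

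Within libraries, the SLC1A5 to SLC1A4 count ratio was 2.15, 2.22 and 2.39 at rest, 3.86, 3.2 and 3.37 at 5 h and 4.37, 7.83 and 5.32 at 12 h, with no overlap between any of the groups. The ratio at 5 h was 1.54 times that at rest, and the ratio at 12 h was 2.52 times that at rest and 1.64 times that at 5 h. Each of these differences had a two-sided exact permutation p of 0.1, the smallest possible with 3 against 3, and 0.112 adjusted over 9 tests. The SD of the log2 ratio was 0.079 at rest, 0.139 at 5 h and 0.429 at 12 h.

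The sodium-coupled pair also parted: SLC38A2 fell and SLC38A1 was not called against resting cells. SLC38A2 had 406, 498 and 460 CPM in the resting libraries, 248, 308 and 311 CPM in the 5 h libraries and 275, 250 and 242 CPM in the 12 h libraries. All activated libraries lay under all resting libraries, and the 5 h and 12 h libraries overlapped. The log2 fold change was -0.65 ± 0.10 (SE) at 5 h versus resting and -0.83 ± 0.10 at 12 h versus resting, with adjusted p of 1.06e-05 and 4.43e-07 by edgeR. For 12 h versus 5 h it was -0.18, with a 95% interval from -0.38 to 0.02 and an adjusted p of 0.208 by edgeR. Without 5 h replicate 1, the lowest of the 5 h libraries, this last difference was -0.28 with an adjusted p of 0.0294 by edgeR, and over all alternatives the adjusted p ran from 0.0294 to 1. An antisense gene, SLC38A2-AS1, is listed by RefSeq, and its footprints could have been counted with SLC38A2 if strand was not used.

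SLC38A1 had 213, 257 and 215 CPM in the resting libraries, 236, 256 and 271 CPM in the 5 h libraries and 209, 221 and 200.5 CPM in the 12 h libraries. The resting libraries overlapped with both activated groups. Its log2 fold change was 0.15 at 5 h versus resting, with a 95% interval from -0.04 to 0.35, and -0.12 at 12 h versus resting, with an interval from -0.32 to 0.07. The adjusted p was 0.208 and 0.334 by edgeR, and without resting replicate 2 the 5 h value was 0.24 with an adjusted p of 0.0468, at the low end of a range over all alternatives from 0.0468 to 1. At 12 h SLC38A1 was lower than at 5 h, with 210 ± 10.2 CPM against 254 ± 17.6 CPM (SD, n = 3 each), a log2 difference of -0.28 ± 0.09 (SE) and an adjusted p of 0.0306 by edgeR. This call was lost, by edgeR, without 5 h replicate 2 or 3 (adjusted p of 0.08 and 0.202) and without 12 h replicate 1 or 3 (0.0887 and 0.134). With all 9 libraries it was also lost with RLE scaling in place of TMM, at an adjusted p of 0.0567 by edgeR. The adjusted p ran from 0.0132 to 1 over all alternatives.

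The SLC38A2 to SLC38A1 count ratio was 1.91, 1.94 and 2.14 at rest, 1.05, 1.2 and 1.15 at 5 h and 1.32, 1.13 and 1.21 at 12 h. Every activated library had a lower ratio than every resting library. The ratio at 5 h was 0.569 times that at rest and the ratio at 12 h was 0.611 times that at rest, each with a two-sided exact permutation p of 0.1 and 0.112 adjusted over 9 tests. Between 12 h and 5 h the ratios overlapped, with an exact permutation p of 0.4.

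**Figure D3:**
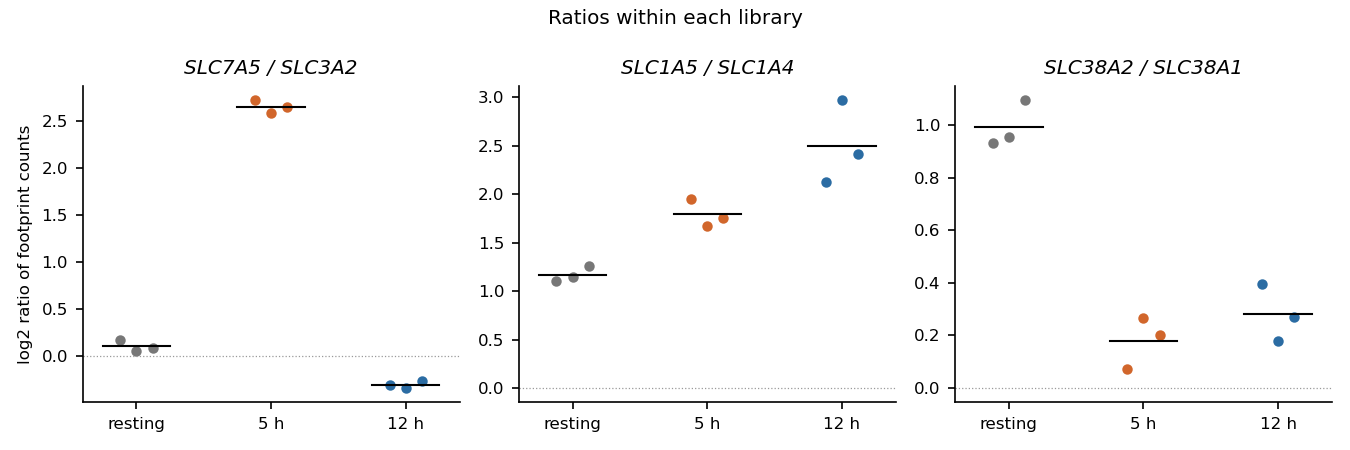
Log2 ratio of footprint counts (vertical axis) within each library for SLC7A5 over SLC3A2, SLC1A5 over SLC1A4 and SLC38A2 over SLC38A1, in resting, 5 h and 12 h libraries; points are libraries and lines group means. The first ratio averages 0.10 at rest, 2.65 at 5 h and -0.31 at 12 h, the second is higher at each later time, and the third is lower in all 6 activated libraries than in the 3 resting ones.

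SLC7A1, the arginine and lysine transporter, passed the test only between the time points. It had 135, 134 and 150 CPM in the resting libraries, 167, 155 and 170 CPM in the 5 h libraries and 121, 145 and 132 CPM in the 12 h libraries. The 5 h libraries lay above the resting libraries by a gap of only 1.04-fold. The mean was 164 ± 7.60 CPM at 5 h against 140 ± 8.43 CPM at rest (SD, n = 3 each), a log2 fold change of 0.23 with a 95% interval from 0.03 to 0.43, and its adjusted p of 0.0669 by edgeR missed the threshold. That adjusted p was 0.038 by edgeR with upper quartile scaling and 0.0191 with IDs of at least 50 counts in 3 libraries, and over all alternatives it ran from 0.0191 to 1.

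The 12 h level of SLC7A1 was lower than at 5 h, at 132 ± 12.2 CPM against 164 CPM, a log2 difference of -0.31 ± 0.10 (SE) with an adjusted p of 0.0178 by edgeR. This call was lost, by edgeR, without 5 h replicate 3 (adjusted p of 0.109) and without 12 h replicate 1 or 3 (0.126 and 0.0633), and the adjusted p ran from 0.0134 to 1 over all alternatives. Against resting cells the 12 h difference was -0.08, with a 95% interval from -0.29 to 0.12 and an adjusted p of 0.542 by edgeR.

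**Figure D4:**
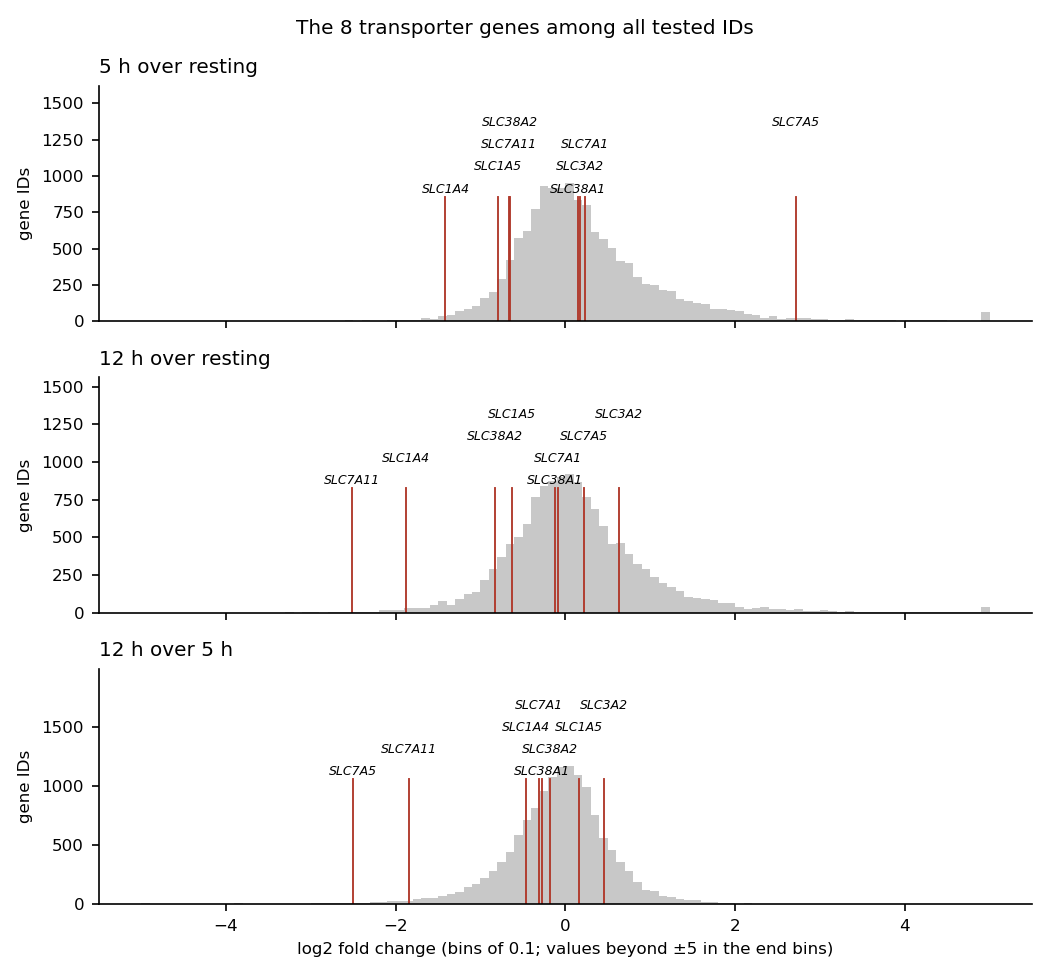
Distribution of the log2 fold changes of all 13920 IDs tested (grey bars, number of IDs per bin) with the 8 genes as labelled vertical lines, for 5 h over resting, 12 h over resting and 12 h over 5 h. SLC7A5 lies far into the right tail at 5 h over resting (259 IDs higher) and into the left tail at 12 h over 5 h (75 IDs lower); SLC7A11 lies near the left end at 12 h over resting (21 IDs lower).

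The share of all footprints on the 8 genes moved with SLC7A5. Together they took 0.149% ± 0.00734 of all counts in resting libraries, 0.307% ± 0.0222 in 5 h libraries and 0.154% ± 0.000731 in 12 h libraries (SD, n = 3). SLC7A5 alone made up 17.6% ± 1.60 of their counts in resting libraries, 62.2% ± 2.78 in 5 h libraries and 22.7% ± 0.767 in 12 h libraries. The other 7 genes took 0.123% ± 0.00589 in resting libraries, 0.115% ± 0.00257 in 5 h libraries and 0.119% ± 0.000994 in 12 h libraries. Their ranges, 0.117 to 0.129% at rest, 0.114 to 0.118% at 5 h and 0.118 to 0.120% at 12 h, overlapped between resting and activated libraries. These shares use unscaled library totals, unlike the TMM-scaled CPM. TMM factors were 0.895 to 0.951 in resting, 0.997 to 1.048 in 5 h and 1.05 to 1.065 in 12 h libraries. Scaled levels of activated libraries therefore stand lower relative to rest than these shares. Summed as CPM, the other 7 genes stood lower in every activated library than in every resting library. The overlap thus holds for the unscaled shares only, and no test of the sums was made.

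**Figure D5:**
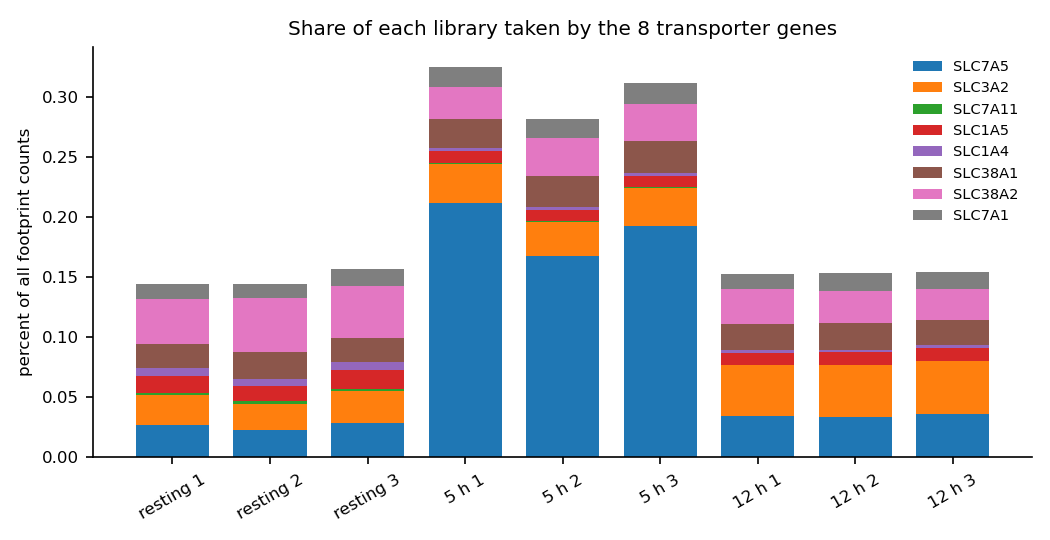
Percent of all footprint counts (vertical axis, starting at 0) taken by each of the 8 genes, stacked, in each of the 9 libraries, without scaling and not per length. The total is 0.282 to 0.326% in the 5 h libraries and 0.145 to 0.157% in the resting and 12 h libraries, and the SLC7A5 segment makes the difference.

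Set out by their calls, the 8 genes followed 5 courses. SLC7A11 and SLC1A4 were lower at 5 h, lower at 12 h and lower at 12 h than at 5 h, a course shared by 315 of the 13920 IDs (2.26%). SLC1A5 and SLC38A2 were lower at both times with no called step between them, as were 1043 IDs (7.49%). SLC38A1 and SLC7A1 were not called against rest at either time, and their only call was a lower 12 h than 5 h level, as for 199 IDs (1.43%). SLC7A5 was higher at both times and lower at 12 h than at 5 h, as for 238 IDs (1.71%), and SLC3A2 was higher at 12 h than at both earlier points and not called at 5 h, as for 428 IDs (3.07%). The courses of SLC7A5, SLC7A11, SLC1A4, SLC38A1 and SLC7A1 hold at least 1 call that was lost when single libraries were left out. Those of SLC3A2, SLC7A1, SLC38A1 and SLC38A2 hold a difference that missed the test but passed it under at least 1 alternative, as given with each gene.

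Over the 9 libraries, which differ mainly by group, SLC1A4 and SLC38A2 were the most alike of the 28 pairs of these genes, with a correlation of log2 CPM of 0.93. SLC3A2 and SLC7A11 were the most opposed, at -0.95. SLC7A5 was most like SLC7A1, at 0.82, and correlated with its partner SLC3A2 at -0.16. Among 8827 other IDs averaging at least 10 CPM, 87 had a correlation of at least 0.95 with SLC7A5 and 182 with SLC38A2, but only 7 with SLC38A1 and 2 with SLC7A1. These correlations describe libraries that share depth and group, and carry no test.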

How the data were processed

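Footprints were measured in 9 libraries, 3 per group, and groups and replicate numbers came from the sample titles. The deposited table holds whole-number counts per versioned Ensembl ID with no normalization, and no count fell on rows without a gene ID. Build GRCh38.p13 and the tools cutadapt 3.2, Bowtie, bedtools, RSEM and DESeq2 are listed, without roles, per the submitters' processing notes. No source used here gives the annotation release, the use of strand or the handling of fragments that match several genes. The second deposited table has log2 values for 11572 IDs, all 8 genes among them. A check against the counts found them equal, within 5.03e-09, to log2(count / size factor + 1) with 1 size factor per library.

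Counts were tested with edgeR 4.0.16 in R 4.3.3 (TMM, filterByExpr, glmQLFit, glmQLFTest) in 1 fit of all 9 libraries without a replicate term, which tested 13920 of 19569 IDs at a common biological coefficient of variation of 15.6%. P-values were adjusted by Benjamini-Hochberg over all tested IDs, and standard errors were taken from the fold change and its F statistic. The procedure was also run on simulated counts with the same dispersion for every gene. No conclusion is drawn here from that run. Alternatives used other scalings, filters and fits, DESeq2 1.42.0, limma 3.58.1 on the authors' log2 values and omission of each library. The 8 genes, lists, motifs and tests were chosen with earlier results of these data known. All 8 genes were to be named, with genes of other pathway lists and nearest neighbours where a table gave their symbols; none did, so list counts and levels per coding length were not computed. Gene names of the 8 IDs came with the choice of genes, and RefSeq windows were matched by symbol for 7 of 8.

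No sign of pairing by replicate number was found. Deviations from group means of same-numbered libraries correlated at -0.062 to 0.09 over 9 pairs. For libraries of other numbers the range was -0.114 to 0.087 over 18 pairs. With group means of 3 libraries, this check cannot exclude pairing.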

Additional observations from a re-analysis of the deposited data

Results flagged for a closer look

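For 6 of the 8 genes the difference from rest was not the same at the 2 times, tested directly as 12 h against 5 h with edgeR. Activation and time in culture cannot be told apart in it. The log2 difference from rest at 12 h minus that at 5 h was -2.50 for SLC7A5, 0.46 for SLC3A2, -1.84 for SLC7A11, -0.47 for SLC1A4, -0.28 for SLC38A1 and -0.31 for SLC7A1. The background is 25.1% of all IDs tested. Those of SLC1A4, SLC38A1 and SLC7A1 were lost on leaving out single libraries, as given with each gene, while those of SLC7A5, SLC3A2 and SLC7A11 passed whichever library was left out. Leaving out 1 library per group was the only check of outlying samples, since groups of 3 are too small for an outlier test.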

How the results depend on the processing

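No direction of any of the 24 gene differences or 9 ratio differences changed under any alternative run. Each run of the gene differences scaled the libraries, however. Unscaled mean shares at 12 h against rest were 0.0221% against 0.0211% for SLC38A1 and 0.0139% against 0.0129% for SLC7A1. Both lie opposite to the direction of the CPM, and neither difference was called. The other gene differences kept their direction in unscaled mean shares. Of the 24 gene differences, 317 of 360 alternative values kept their side of the threshold, 38 lost it and 5 gained it. The number of the 8 genes called was 5 at 5 h versus resting, 6 at 12 h versus resting and 6 at 12 h versus 5 h. A test against a 1.5-fold change, which asks for more than any change, called 2, 3 and 2. In that test alone, SLC3A2 lost both of its calls, SLC1A5 lost both of its calls and SLC38A2 lost its call at 5 h. At 5 h versus resting, IDs with at least 50 counts in 3 libraries gave 7 calls, 3 of them higher, and upper quartile scaling gave 6, 2 of them higher, against 1 higher as reported. Limma on the authors' log2 table called 3 at 12 h versus 5 h, 2 of them lower, where SLC1A4, SLC38A1 and SLC7A1 missed. Leaving out 1 library gave 4 to 5 calls at 5 h versus resting, 5 to 6 at 12 h versus resting and 3 to 7 at 12 h versus 5 h, the 3 being reached on omission of 5 h or 12 h replicate 3, with 2 lower. With the replicate number as a block the counts were 5, 6 and 6, as without it, so the block changed no call count. The median log2 fold change of all IDs moved by less than 0.1 with upper quartile and RLE scaling. SLC7A11 is limited by its 9 to 33 counts at 12 h. Pathway lists and levels per coding length were not run.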
